A study of Mus musculus with 108 samples.

Results

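Hepatic genes for the entry of glucose and fructose and for their first use were followed in mouse liver RNA: Slc2a2, Gckr, Pfkl, Pfkfb1, Pklr, Khk, Gys2 and Pygl. These 8 genes were taken by symbol from the 25124 symbols of each table, with the transcript of highest mean standing for a gene, and all 8 were above the filter on low values in the 3 tables. The data are 108 labelled libraries of bulk liver RNA from male mice, in 6 sets of 18, at zeitgeber times (ZT) 2, 6, 10, 14, 18 and 22 with 3 replicates each. The sets were 129S1/SvImJ (129) wild type on a high fat and sucrose diet (D12492i, HFD), 129 wild type on chow, C57BL/6J (B6) wild type on HFD, B6 wild type on chow, Errg-Cre in 129 on HFD, and Esrrg LKO on HFD. The labels name neither the promoter nor the vector behind Errg-Cre, the series text calls the knockout hepatocyte-specific, and the strain label of the Esrrg LKO samples (B6S1/SvImJ) differs from the B6 of their titles. Those titles read diet-induced obesity, where the titles of the other HFD sets name the diet. The columns read as Esrrg LKO carry an ErrgCre name in their table, and were assigned because the descriptions of the Esrrg LKO samples alone name that table. Animal age is not given in the labels, nor whether each replicate is its own animal, and the p-values reflect only sample-to-sample spread, which may be technical.

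Slc2a2 encodes GLUT2, the transporter that carries glucose and other hexoses across the hepatocyte membrane. Gckr encodes a regulatory protein that restrains the first phosphorylation of glucose in the hepatocyte, while ketohexokinase, encoded by Khk, phosphorylates fructose and sends it past the phosphofructokinase step. In the fed liver sugar is stored by glycogen synthase or burned through glycolysis to pyruvate, in the fast glycogen phosphorylase releases it, and the transcription factors ChREBP and SREBP1c are known to raise glycolytic genes after a sugar meal.

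Promoter sequence was available for 7 of the 8 genes in RefSeq (GRCm38.p6, 11 windows of 250 bases before to 50 after a start). Gys2 was not in that table. Both strands were searched for the carbohydrate response element that ChREBP binds (a pair of E-box-like parts with a spacer, matched with some letters free), for the E-box CACGTG and for AAGGTCA, the element of the ERR type. Of all 32851 promoter windows, 0.119% hold the carbohydrate response element, 7.15% the E-box and 4.72% AAGGTCA, and the searches for the first and second could overlap. The stretches before the start are shown for the windows with a match, 5′ to 3′ on the gene's strand with the match in capitals. The Pklr window is that of its downstream start, chr3:89136373-89136622 (+), with the carbohydrate response element at −170 to −154 from the start. Khk is chr5:30921309-30921558 (+), with the E-box at −71 to −66. Slc2a2 is chr3:28697653-28697902 (+), with AAGGTCA at −22 to −16. Pfkfb1 is chrX:150589666-150589915 (+), with AAGGTCA on the other strand at −100 to −94.
Pklr: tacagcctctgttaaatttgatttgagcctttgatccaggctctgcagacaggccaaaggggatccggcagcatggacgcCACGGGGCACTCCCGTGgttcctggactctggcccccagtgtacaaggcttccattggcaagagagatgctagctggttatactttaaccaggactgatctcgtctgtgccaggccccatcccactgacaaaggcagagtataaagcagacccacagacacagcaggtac
Khk: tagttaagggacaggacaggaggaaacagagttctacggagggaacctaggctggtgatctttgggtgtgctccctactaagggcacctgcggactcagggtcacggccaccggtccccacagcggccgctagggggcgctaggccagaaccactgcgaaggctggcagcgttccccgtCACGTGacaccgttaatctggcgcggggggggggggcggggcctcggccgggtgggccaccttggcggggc
Slc2a2: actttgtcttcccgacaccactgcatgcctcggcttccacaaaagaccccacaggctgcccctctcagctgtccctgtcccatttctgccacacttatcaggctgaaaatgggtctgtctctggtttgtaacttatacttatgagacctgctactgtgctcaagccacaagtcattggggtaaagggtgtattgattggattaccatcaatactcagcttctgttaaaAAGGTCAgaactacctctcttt
Pfkfb1: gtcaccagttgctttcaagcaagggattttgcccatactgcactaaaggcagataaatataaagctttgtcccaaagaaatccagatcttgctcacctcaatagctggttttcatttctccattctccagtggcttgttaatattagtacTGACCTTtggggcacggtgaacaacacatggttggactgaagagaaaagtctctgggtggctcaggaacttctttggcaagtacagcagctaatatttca
None of the 3 motifs was in the windows of Gckr, Pfkl and Pygl, in the upstream Pklr window or in the other 3 Pfkfb1 windows. A match is a description of the letters and says nothing of binding, which was not measured.

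Each value is a quantile-normalised number of reads for a transcript. All libraries of 1 table therefore share a total, and depth is unknown. The 3 tables were normalised separately, and levels were tested only among the 72 wild-type libraries. Hepatocyte markers were high in every library (lowest Apoa1 value 5670, lowest Ttr value 4143, in B6 chow). Esrrg itself had a median of 25.9 in Errg-Cre and 16.4 in Esrrg LKO, against 26.0 in 129 HFD, 20.0 in 129 chow, 29.4 in B6 HFD and 16.5 in B6 chow. Control libraries for the mutants were not used here, and a total over a transcript can miss a deleted exon, so neither value checks the genotype. In bulk RNA, fewer cells of a type and less RNA per cell cannot be told apart.

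Libraries stood apart in several ways that touch the results. The slope of a library's log2 values on transcript GC content, set against the mean of its table, was 0.14 ± 0.15 per 10 GC points in 129 HFD, 0.097 ± 0.55 in 129 chow, 0.19 ± 0.13 in B6 HFD and −0.43 ± 0.46 in B6 chow (mean ± SD, n = 18). The non-coding RNA gene Mir6236 was at 294 to 4030 in 129 HFD, 27.7 to 61431 in 129 chow, 915 to 91012 in B6 HFD and 32.8 to 1171 in B6 chow, so in B6 it went with the diet. B6 HFD ZT22 replicate 3 held the neutrophil gene S100a8 at 6588, where the highest of the other 71 wild-type libraries had 11.98, and its highest correlation with another library was 0.883. That correlation was lower still for B6 chow ZT14 replicate 3 (0.796) and 129 chow ZT22 replicate 3 (0.869). These held values under 1 for 14.8% and 6.95% of the tested genes, and B6 HFD ZT6 replicate 1 for 3.25%. Effects are therefore also given with each library's GC and length trend removed or with the Mir6236 level as a covariate; the part of either in the results was not tested.

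With HFD, 5 of the 8 genes rose in 129 livers and 7 of 8 in B6 livers, and 0 fell in either strain (limma, adjusted p below 0.05). Pklr, Khk, Pfkfb1, Gckr and Slc2a2 rose in 129. Khk, Pfkl, Gckr, Pklr, Slc2a2, Pygl and Gys2 rose in B6. Over all 11286 genes tested, 10.9% passed upwards and 7.45% downwards in 129, and 27.5% upwards and 32.7% downwards in B6, where 60.2% passed in all. The median difference of the 8 genes was 0.51 log2 in 129, against 0.04 over all genes, and 0.43 in B6, against −0.06. All fold changes are of log2(value + 1), averaged over the 6 times. With the GC and length trend removed 6 of 8 passed in 129, against 21.6% of all genes in that fit, and 5 of 8 in B6, against 48.8%. With the Mir6236 level as a covariate 7 of 8 passed in 129, against 23.1%, and 0 of 8 in B6, against 5.01%. At ZT22 in B6 the mean log2 value on HFD was below that on chow for 7 of the 8 genes, but 1 library set most of those signs. Without B6 HFD ZT22 replicate 3, which leaves 2 HFD libraries, 3 genes were below chow, Pfkfb1 (−0.65), Pklr (−0.53) and Gys2 (−0.24), and Slc2a2, Gckr, Khk, Pygl and Pfkl were at 0.01 to 0.24. No gene's daily course passed the test of a diet difference in B6.

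**Figure D1:**
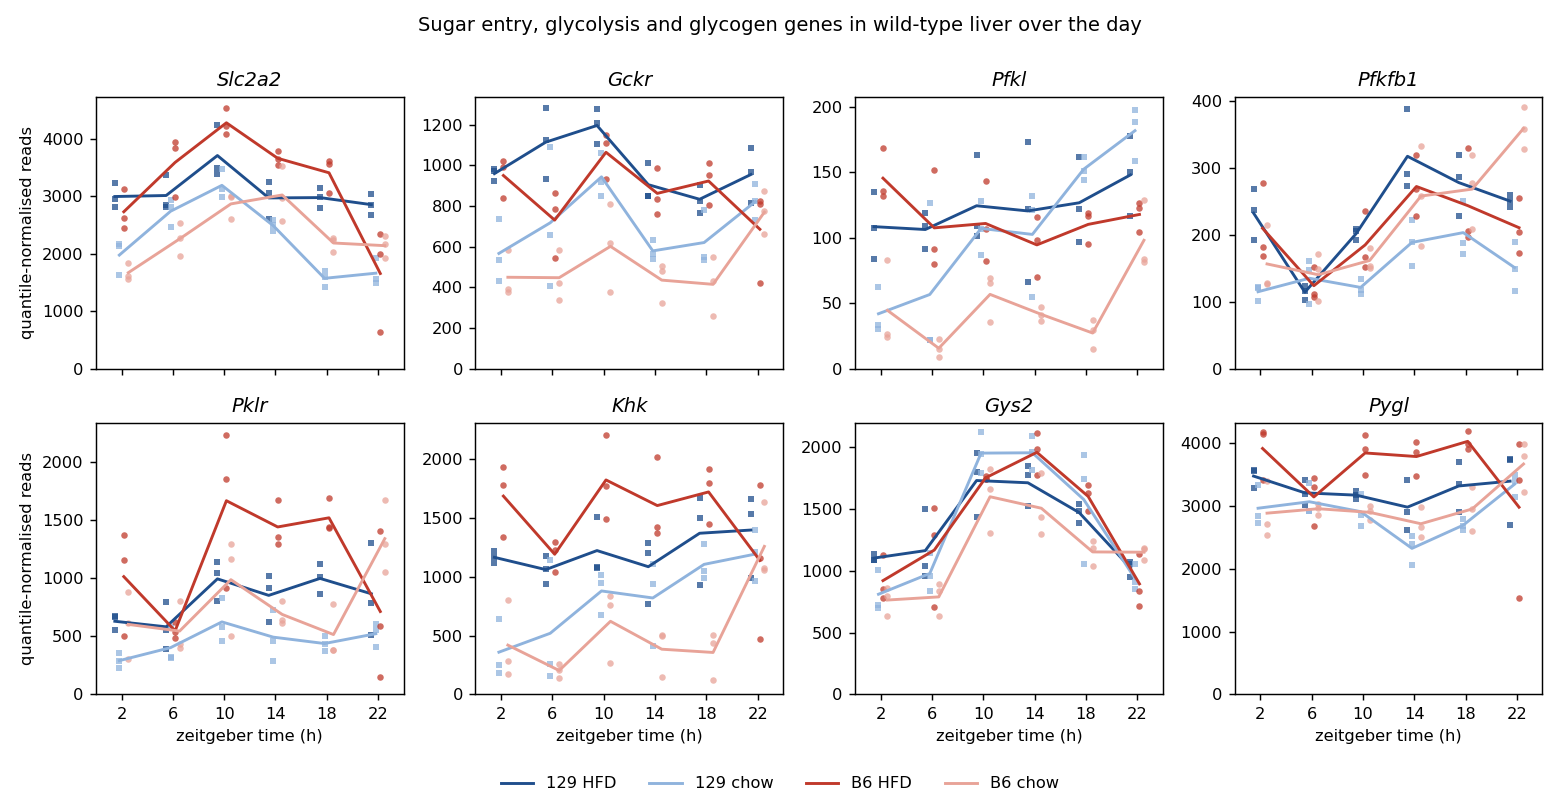
Quantile-normalised reads of the 8 genes (y, from 0) at 6 zeitgeber times (x) in 129 HFD, 129 chow, B6 HFD and B6 chow. Points are single libraries, 3 per time, and lines join their means. The mean of Khk in B6 chow is 204 to 622 at ZT2 to ZT18 and 1258 at ZT22, and Gys2 is highest at ZT10 or ZT14 in all 4 sets.

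Slc2a2 was among the 2 most abundant of the 8 genes per kilobase of transcript in every wild-type set, at a level of 1206 in 129 HFD, 887 in 129 chow, 1258 in B6 HFD and 921 in B6 chow. Its value was 2595 to 4234 with a median of 3015 in the 18 libraries of 129 HFD, against 1415 to 3463 with a median of 2275 in 129 chow. In B6 it was 629 to 4525 with a median of 3547 on HFD, against 1554 to 3521 with a median of 2276 on chow. Every HFD library was above every chow library at 4 of 6 times in 129 and at 5 of 6 times in B6, and at ZT22 in B6 they overlapped. Slc2a2 rose by 0.49 ± 0.08 log2 in 129 (SE; limma adjusted p = 1.86e-05), with a positive difference at 6 of 6 times, and by 0.38 ± 0.08 in B6 (adjusted p = 0.000115), with one at 5 of 6. The B6 value was 0.48 without B6 HFD ZT22 replicate 3, 0.84 with GC and length removed, and 0.45 with the Mir6236 covariate (adjusted p = 0.0701), and the GC content of the Slc2a2 transcript, 41.7%, is the lowest of the 8.

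Gckr, for the regulatory protein of hepatic glucose phosphorylation, rose in both strains. Its value was 767 to 1284 with a median of 969 in 129 HFD, against 406 to 1091 with a median of 694 in 129 chow, and 421 to 1150.2 with a median of 852 in B6 HFD, against 261 to 872 with a median of 493 in B6 chow. The libraries did not overlap at 3 of 6 times in 129 and at 4 of 6 times in B6. The rise was 0.53 ± 0.11 log2 in 129 (limma adjusted p = 0.000193) and 0.78 ± 0.11 in B6 (adjusted p = 1.525e-08). With GC and length removed it was 0.46 in 129 and 0.57 in B6, both past the threshold, and with the Mir6236 covariate it was 0.60 in 129 and 0.36 in B6 (adjusted p = 0.265 in B6).

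Khk, the gateway for fructose, had the largest rise of the 8 in B6. At ZT6 the values were 1045, 1231 and 1299.6 in B6 HFD, against 211, 258 and 142 in B6 chow. At ZT22 they were 1784, 1162 and 470.3 in B6 HFD, against 1060.0, 1637 and 1078 in B6 chow. No HFD library overlapped a chow library at 5 of 6 times in B6, and at ZT22 the groups overlapped. Over the day Khk rose by 1.83 ± 0.21 log2 in B6, which is 3.55-fold (limma adjusted p = 2.73e-10), and by 0.82 ± 0.21 in 129, which is 1.76-fold (adjusted p = 0.0036, higher at 6 of 6 times). In 129 the difference was 1.91 at ZT2 and 1.55 at ZT6, and 0.21 to 0.49 at the other 4 times.

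At 57.9%, Khk has the highest GC content of the 8, and the part of the GC slope in its rise was not tested. The 3 lowest Khk values of B6 chow, 125 in ZT18 replicate 2, 142 in ZT6 replicate 3 and 151 in ZT14 replicate 3, were in the 3 libraries with the lowest slopes, −1.17, −1.08 and −1.25 per 10 GC points. The 3 highest Khk values of B6 chow were those of ZT22, where the slopes were −0.086 to 0.20, while ZT10 replicate 2, with the highest slope of the set at 0.25, had a Khk value of 838. After removal of the GC and length trend the rise was 1.26 ± 0.13 in B6 (limma adjusted p = 3.15e-11) and 0.70 ± 0.13 in 129. With the Mir6236 covariate it was 0.53 ± 0.31 in B6 (adjusted p = 0.374) and 1.04 ± 0.18 in 129 (adjusted p = 1.31e-05).

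Pfkl, the liver subunit of phosphofructokinase at the committed step of glycolysis, was the least abundant of the 8 per kilobase, at a level of 33.0 in 129 HFD, 28.9 in 129 chow, 30.9 in B6 HFD and 12.7 in B6 chow. In B6 its value was 69.9 to 169 with a median of 116 on HFD, against 9.01 to 129 with a median of 36.6 on chow. The libraries of B6 did not overlap at ZT2 to ZT18, and at ZT22 they were at 122, 105 and 126 on HFD, against 81.7, 129 and 83.6 on chow. Pfkl rose by 1.52 ± 0.17 log2 in B6 (limma adjusted p = 1.99e-10, higher at 6 of 6 times). In 129 the difference was 0.44 ± 0.17 and did not pass (adjusted p = 0.0681, higher at 4 of 6 times; it passed without any of 3 single libraries), with 1.40 at ZT2 and ZT6 and −0.31 to 0.22 at the other 4 times. Its GC content is 57.1%, next to that of Khk. Once GC and length were removed the difference was 1.03 in B6 and 0.38 in 129, both past the threshold, and with the Mir6236 covariate it was 0.53 in B6 (adjusted p = 0.267) and 0.61 in 129 (adjusted p = 0.0021).

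Pfkfb1 encodes the liver form of the bifunctional enzyme that makes and breaks fructose 2,6-bisphosphate, the activator of phosphofructokinase. It rose in 129, where its value was 103 to 387 with a median of 239 on HFD, against 96.3 to 251 with a median of 148 on chow. In B6 it was 107 to 329 with a median of 200.2 on HFD, against 101 to 390.5 with a median of 196 on chow. The difference was 0.58 ± 0.10 log2 in 129 (limma adjusted p = 7.64e-06, higher at 5 of 6 times, with no overlap at 4) and −0.07 ± 0.10 in B6 (adjusted p = 0.564, higher at 3 of 6 times). At ZT22 every B6 HFD library was below every B6 chow library, at 254, 205 and 172 on HFD, against 358, 390.5 and 327 on chow. The 129 rise passed under both alternatives, at 0.51 with GC and length removed and 0.57 with the Mir6236 covariate.

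Pklr encodes the liver and red cell pyruvate kinase of the last glycolytic step, and its downstream promoter holds the match to the carbohydrate response element printed above. Its 2 transcripts differed by at most 0.02 log2 in any wild-type library, so the table does not separate them. The value was 392.02 to 1304 with a median of 799 in 129 HFD, against 226 to 833 with a median of 448 in 129 chow. In B6 it was 150.4 to 2232 with a median of 1325 on HFD, against 309 to 1677 with a median of 710.4 on chow. The HFD libraries were all above the chow libraries at 2 of 6 times in each strain (ZT2 and ZT18 in 129, ZT14 and ZT18 in B6). The rise in B6 was 0.48 ± 0.18 log2 (limma adjusted p = 0.0192), with 1.64 at ZT18 and −1.40 at ZT22 (−0.53 there without B6 HFD ZT22 replicate 3). It was 0.63 without B6 HFD ZT22 replicate 3, which held the lowest value, and 0.36 without B6 HFD ZT22 replicate 1, which ended the call (adjusted p = 0.0583). It was 0.15 with GC and length removed (adjusted p = 0.469). The 129 rise of 0.84 ± 0.18 was higher at 6 of 6 times, at 0.53 to 1.19, and was 0.78 with GC and length removed and 0.90 with the Mir6236 covariate.

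The glycogen pair had differences of 0.07 to 0.24 log2. Gys2, the liver glycogen synthase, had a mean of 1365 ± 330.4 in 129 HFD and 1366 ± 529.5 in 129 chow, and 1380.4 ± 462 in B6 HFD and 1158 ± 358 in B6 chow (SD over 18 libraries and all times). Its difference was 0.07 ± 0.08 log2 in 129 (limma adjusted p = 0.645) and 0.23 ± 0.08 in B6 (adjusted p = 0.0115, higher at 5 of 6 times). Pygl, the liver glycogen phosphorylase, had a mean of 3253 ± 340.4 in 129 HFD and 2879 ± 381 in 129 chow, and 3609.7 ± 652 in B6 HFD and 3008 ± 404 in B6 chow. Its difference was 0.18 ± 0.07 in 129 (adjusted p = 0.0583), positive at 6 of 6 times, and 0.24 ± 0.07 in B6 (adjusted p = 0.0022), positive at 5 of 6. The 129 value of Pygl passed when any of 7 single libraries was left out, and without B6 HFD ZT22 replicate 3 its adjusted p was 0.0068. That library is in neither 129 set, so the difference stayed at 0.18. Only the spread shared by the 72 libraries and the adjustment changed. The B6 value was 0.15 with GC and length removed (adjusted p = 0.101).

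**Figure D2:**
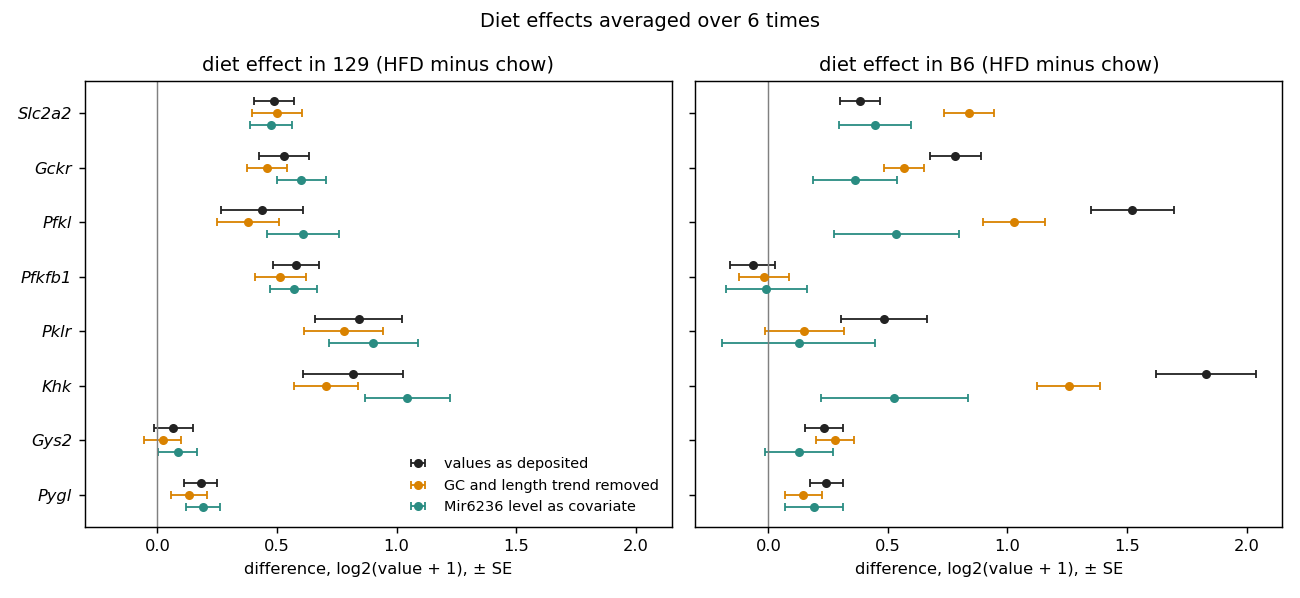
Difference between HFD and chow of the 8 genes (x, log2(value + 1), bars ± SE) in 129 and in B6, as deposited, with the GC and length trend removed, and with the Mir6236 level as a covariate. In 129 Khk is at 0.82, 0.70 and 1.04, and in B6 Khk is at 1.83, 1.26 and 0.53 and Pfkl at 1.52, 1.03 and 0.53.

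Tested directly as 129 minus B6, the diet effect differed for 3 of the 8 genes, against 34.4% of all genes (20.1% with the larger value in 129). Pfkl differed by −1.09 ± 0.24 log2 (limma adjusted p = 0.000709) and Khk by −1.01 ± 0.30 (adjusted p = 0.0074), with the smaller rise in 129. Pfkfb1 differed by 0.65 ± 0.13 (adjusted p = 0.000349), with the rise in 129. After removal of the GC and length trend these were −0.65, −0.55 and 0.53, all past the threshold, and Pklr passed as well at 0.63 (adjusted p = 0.0466). Under the Mir6236 covariate none of the 8 passed, and 0.124% of all genes did: Pfkl was at 0.07 and Khk at 0.52, both with the sign turned, and Pfkfb1 at 0.58 (adjusted p = 0.434).

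On HFD the strains did not differ past the threshold in any of the 8 genes (limma, 0 of 8), while 32.3% of all genes passed. At an unadjusted p below 0.05 there was 1 of the 8, against 40.9% of all genes. The differences, 129 minus B6, ran from −0.32 ± 0.18 log2 for Pklr to 0.21 ± 0.11 for Gckr. Without B6 HFD ZT22 replicate 3, 2 genes passed, Pklr at −0.46 (adjusted p = 0.0199) and Pygl at −0.20 (adjusted p = 0.0019), and 32.5% of all genes did. On chow 6 of 8 differed, against 53.0% of all genes (25.4% higher in 129). Pfkl (1.17 ± 0.17), Khk (0.72 ± 0.21), Gckr (0.47 ± 0.11) and Gys2 (0.20 ± 0.08, adjusted p = 0.0352) were higher in 129, and Pklr (−0.67 ± 0.18) and Pfkfb1 (−0.49 ± 0.10) were lower. Gys2 lost its call when any of 11 single libraries was left out. With GC and length removed Khk was at 0.31 (adjusted p = 0.0615), Slc2a2 passed at 0.29 after −0.07 as deposited, and Pklr was at −0.95. With the Mir6236 covariate Pfkfb1 (−0.45) and Pklr (−0.91) alone passed, and Khk turned to −0.15. At ZT22, Pfkfb1 was at 189, 148 and 115 in 129 chow, against 358, 390.5 and 327 in B6 chow, with no overlap.

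The daily courses were fitted with a 24 h cosine in each set. Gys2 passed in all 6 sets, Pfkfb1 in 5, Slc2a2 in 4, Pklr, Pfkl and Khk in 1 each, and Gckr and Pygl in none. Among the 11286 wild-type genes the cosine passed for 7.05% in 129 HFD, 47.8% in 129 chow, 4.08% in B6 HFD and 6.15% in B6 chow. For the 8 genes it passed for 2, 5, 3 and 3 of them in that order of sets.

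In the 4 wild-type sets Gys2 had fitted peaks from ZT13.0 to ZT14.2. Its mean at ZT14 was 1709 in 129 HFD, 1952 in 129 chow, 1955 in B6 HFD and 1504 in B6 chow. At ZT2 it was 1101 in 129 HFD, 809 in 129 chow, 919 in B6 HFD and 763 in B6 chow. In 129 chow the values were 2085, 1959 and 1811 at ZT14, against 1007, 726 and 695 at ZT2, with no overlap. The cosine amplitude was 0.41 ± 0.09 log2 in 129 HFD (peak ZT13.0, limma adjusted p = 0.0024), 0.72 ± 0.09 in 129 chow (ZT13.4, 5.71e-09), 0.64 ± 0.09 in B6 HFD (ZT13.2, 3.91e-06) and 0.50 ± 0.09 in B6 chow (ZT14.2, 0.000177). Pygl, the enzyme that runs the other way, had amplitudes of 0.09 to 0.18 in the wild-type sets and did not pass.

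Slc2a2 was highest at ZT10 in 129 HFD, 129 chow and B6 HFD and at ZT14 in B6 chow, and passed in 3 of the 4 sets. The amplitude was 0.52 ± 0.09 log2 in 129 chow (peak ZT9.0, limma adjusted p = 4.84e-05), 0.62 ± 0.09 in B6 HFD (ZT10.7, 3.44e-05) and 0.37 ± 0.09 in B6 chow (ZT12.6, 0.0232). In 129 HFD it was 0.12 ± 0.09 (adjusted p = 0.872), and values stayed between 2663 and 3043 at ZT22, against 1488 to 1927 in 129 chow. In B6 HFD the 3 values at ZT22 were 2342, 1990.3 and 629, and without that lowest library the amplitude was 0.40 (adjusted p = 2.58e-05). The change of the cosine with diet in 129 was 0.40 ± 0.13 (adjusted p = 0.173; 0.0141 without B6 HFD ZT22 replicate 3), and the difference of the strains on chow 0.43 ± 0.13 (adjusted p = 0.0572; 0.0015 without that library, and 0.777 with GC and length removed). B6 HFD ZT22 replicate 3 is in none of the sets of these comparisons, so both values stayed the same without it. Only the spread shared by the 72 libraries and the adjustment changed. The B6 chow call was lost without any of 3 single libraries and with GC and length removed (adjusted p = 0.105).

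Pfkfb1 was lowest at ZT2 or ZT6 and highest at ZT14 to ZT22. In 129 HFD its values were 115, 103 and 124 at ZT6 and 291, 387 and 273 at ZT14, with no overlap. The peak fell at ZT17.7 in 129 HFD, ZT16.8 in 129 chow, ZT17.5 in B6 HFD and ZT18.7 in B6 chow, with amplitudes of 0.55 ± 0.11, 0.38 ± 0.11, 0.42 ± 0.11 and 0.64 ± 0.11 log2 in that order (limma adjusted p = 0.0017, 0.0142, 0.0484 and 0.000234). The 129 chow call was lost without 129 chow ZT18 replicate 3 (adjusted p = 0.0533) and with the Mir6236 covariate (adjusted p = 0.0984). The B6 HFD call rests on a p at the threshold and was lost without any of 42 single libraries of the 72, among them libraries of other sets.

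Pfkl and Khk passed the cosine test in 129 chow alone. Pfkl was at 62.0, 33.2 and 30.4 at ZT2 and at 189, 159 and 198 at ZT22, and Khk at 644, 249 and 185 at ZT2 and at 967, 1398 and 1215 at ZT22. The amplitude was 0.99 ± 0.22 log2 for Pfkl (peak ZT17.5, limma adjusted p = 0.0011) and 0.86 ± 0.25 for Khk (ZT16.9, 0.0122). Without 129 chow ZT6 replicate 1 the Khk amplitude was 0.70 and did not pass (adjusted p = 0.071). Mir6236 in the same libraries was at 27.7 to 167 at ZT2 and at 45004 to 61431 at ZT22, and the GC slope ran from −0.89 to −0.10 at ZT2 and from 0.42 to 0.67 at ZT22. After removal of the GC and length trend the amplitudes were 0.60 (adjusted p = 0.0086) and 0.51 (0.0309), and with the Mir6236 covariate 0.09 (0.929) and 0.32 (0.621). Gys2 and Slc2a2 kept amplitudes of 0.68 and 0.54 in 129 chow with that covariate, both past the threshold.

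Of the 8 genes 0 passed a test of a changed or different course between wild-type sets (limma), with diet in 129 (1.26% of all genes), with diet in B6 (0.0532%), between strains on HFD (0.0443%) or on chow (13.1%), or for the strain difference of the diet change (0.0%). At an unadjusted p below 0.05, these tests gave 3, 2, 1, 1 and 2 of the 8 genes in that order, against 18.9%, 9.32%, 4.64%, 34.8% and 9.27% of all genes. Pklr in B6 HFD had the largest amplitude of that set, 0.73 ± 0.21 with a peak at ZT13.75, but did not pass (adjusted p = 0.0761); it passed without any of 3 single libraries and with GC and length removed (0.72, adjusted p = 0.0261).

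**Figure D3:**
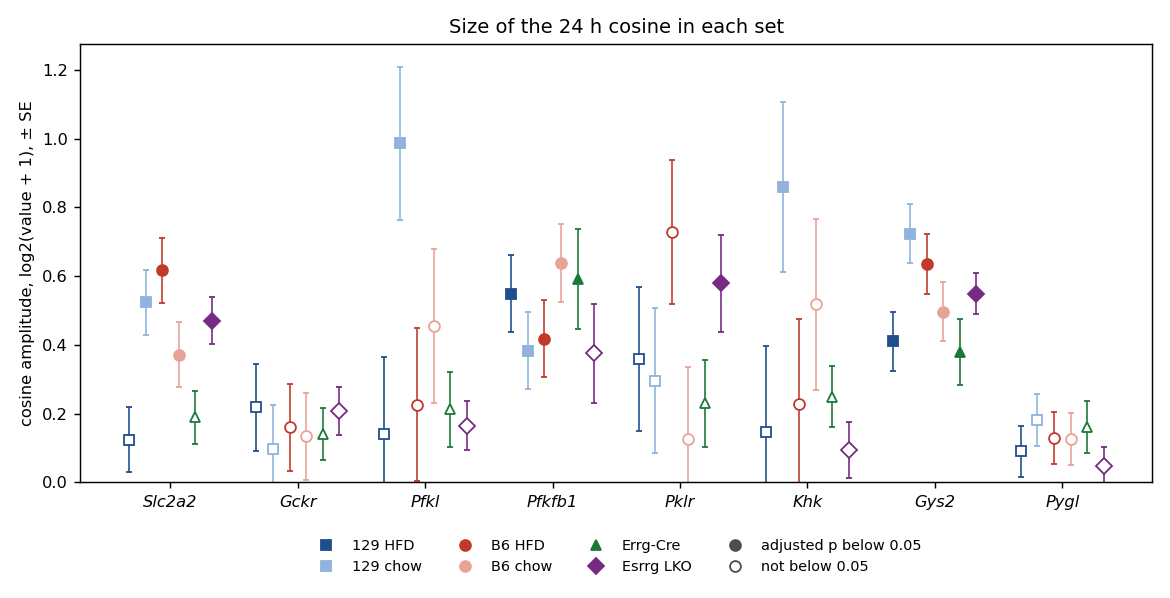
Amplitude of the 24 h cosine (y, log2(value + 1), ± SE) of the 8 genes in 6 sets. Filled symbols passed an adjusted p of 0.05. Gys2 is filled in all 6 sets, Pfkfb1 in 5 and Slc2a2 in 4, while Gckr and Pygl are open throughout.

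The mutant sets were fitted within their own tables, and their courses are set beside each other and beside wild type without a test. In Errg-Cre livers 2 of 8 genes passed, against 17.8% of 11621 genes: Pfkfb1 (0.59 ± 0.14 log2, peak ZT16.8, limma adjusted p = 0.024) and Gys2 (0.38 ± 0.10, ZT11.8, 0.0294). Pfkfb1 was at 108, 78.6 and 133 at ZT6 and at 368, 288 and 295 at ZT18 there. Slc2a2 had an amplitude of 0.19 ± 0.08 (adjusted p = 0.175). Both calls were lost without some single libraries, 2 of 18 for Pfkfb1 and 4 of 18 for Gys2.

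In Esrrg LKO livers 3 of 8 genes passed, against 6.09% of 11945 genes: Gys2 (0.55 ± 0.06 log2, peak ZT9.47, limma adjusted p = 2.565e-05), Slc2a2 (0.47 ± 0.07, ZT7.8, 0.000551) and Pklr (0.58 ± 0.14, ZT9.55, 0.0398). Gys2 was at 1399, 1619 and 1408 at ZT6 and at 690.0, 706 and 722 at ZT22, with no overlap. Slc2a2 was at 2911, 2310.4 and 3114 at ZT6 and at 1702, 1234 and 1752 at ZT18, with no overlap. Pklr was at 2133, 2826 and 2533 at ZT10 and at 607, 1281 and 1263 at ZT22. Its call was lost without any of 9 of the 18 libraries. Pfkfb1 did not pass (0.38 ± 0.14, adjusted p = 0.260). The fitted peaks of Gys2 and Slc2a2 were at earlier hours than in the wild-type sets, whose own peaks ran from ZT13.0 to ZT14.2 and, where Slc2a2 passed, from ZT9.0 to ZT12.6. The latest of both, ZT14.2 and ZT12.6, were those of B6 chow. This gap was not tested, since the tables and sets differ in strain label, genotype, diet and normalisation, which cannot be told apart here.

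**Figure D4:**
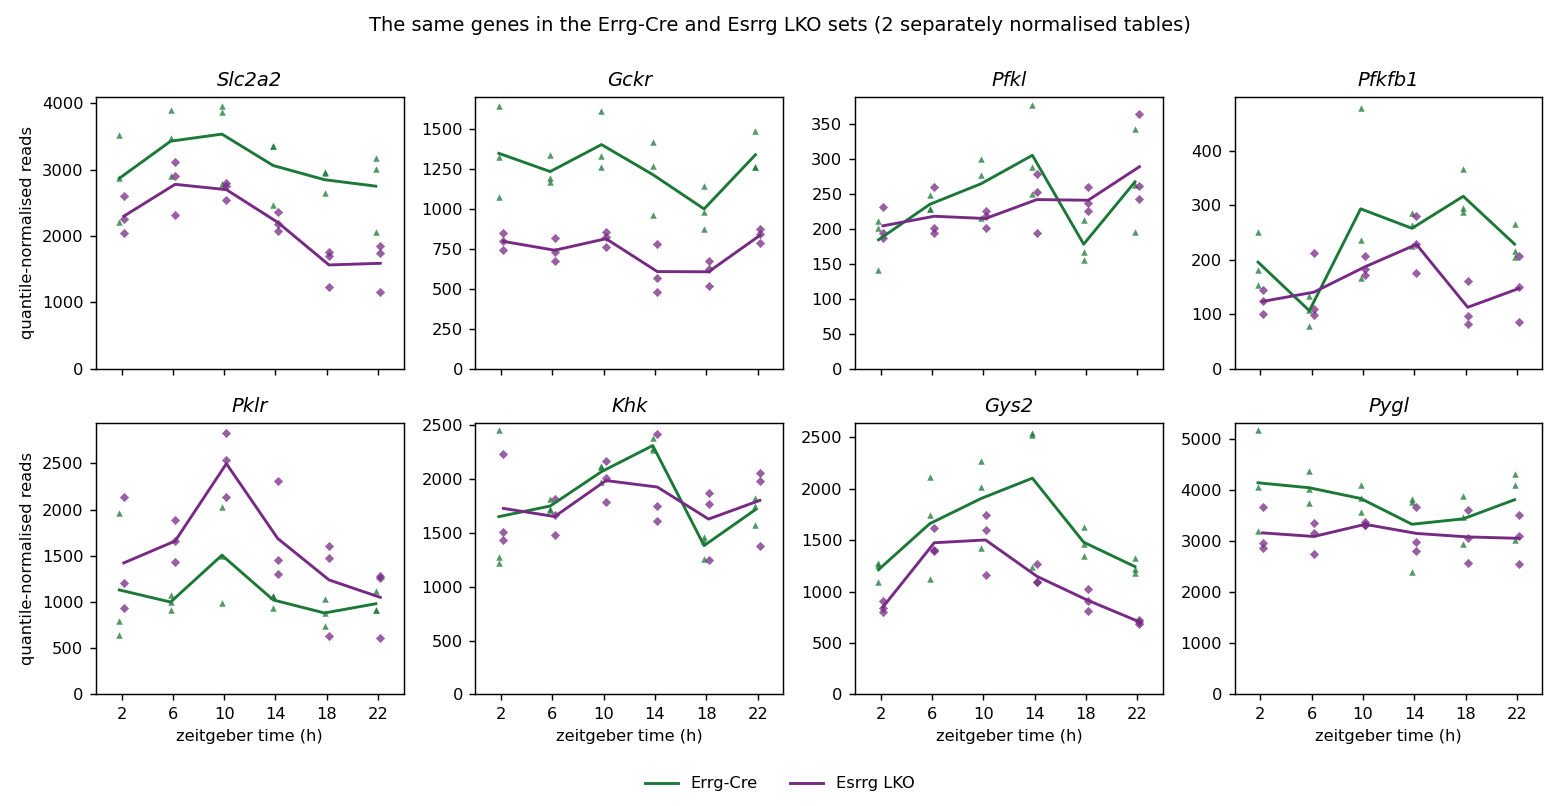
Quantile-normalised reads of the 8 genes (y, from 0) at 6 zeitgeber times (x) in Errg-Cre and Esrrg LKO livers. Points are single libraries, 3 per time, and lines join their means. In Esrrg LKO the mean of Slc2a2 is lowest at ZT18 (1563) and ZT22 (1588), and that of Gys2 at ZT22 (706) and ZT2 (851). Levels of the 2 sets come from separately normalised tables.

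The rest of the pathway was counted from lists chosen with earlier results of these data known. Of 20 glycolytic enzyme genes tested, 3 rose and 1 fell in 129, and 13 rose and 1 fell in B6. Of all genes, 10.9% rose and 7.45% fell in 129, and 27.5% rose and 32.7% fell in B6. Lactate dehydrogenase Ldha rose by 0.73 ± 0.09 in 129 and hexokinase Hk3, at means of 10.23 on HFD and 5.50 on chow there, by 1.24 ± 0.36. Pfkfb3, a relative of Pfkfb1 with high kinase activity, fell in 129 (−1.08 ± 0.22, mean 47.3 on HFD and 115 on chow). In B6 the muscle-type pyruvate kinase Pkm (1.69) and Gapdh (1.36) rose, and Pfkfb2 fell (−0.39). The list's median was −0.0041 in 129, against 0.0356 for all genes, and 0.65 in B6, against −0.06. Once GC and length were removed 4 rose and 2 fell in 129 and 11 rose and 4 fell in B6, and with the Mir6236 covariate 6 rose and 1 fell in 129 and 1 rose and 0 fell in B6. The first of these fits passed 21.6% of all genes in 129 and 48.8% in B6, and the second 23.1% and 5.01%.

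Of 5 fructose and polyol genes tested, 2 rose in 129 and 4 in B6, and 0 fell, against 10.9% of all genes rising in 129 and 27.5% in B6. Tkfc, the triokinase that acts downstream of ketohexokinase, rose by 0.79 ± 0.16 log2 in 129 (mean 1118 on HFD and 709 on chow, limma adjusted p = 0.000299) and by 0.87 ± 0.16 in B6 (1126 on HFD and 649 on chow, adjusted p = 1.14e-05). Sorbitol dehydrogenase Sord rose in 129 (0.32 ± 0.05), and glycerate kinase Glyctk (0.94 ± 0.12) in B6. With GC and length removed 3 rose in each strain, and with the Mir6236 covariate 3 in 129 and 1 in B6, where Tkfc was at 0.17. Those 2 fits passed 21.6% and 23.1% of all genes in 129, and 48.8% and 5.01% in B6.

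Of 4 hexose transporter genes tested beside Slc2a2, 0 changed in 129 (limma, also 0 at an unadjusted p below 0.05) and 3 rose in B6: Slc2a8 (0.72 ± 0.29 log2), the fructose transporter Slc2a5 (0.61 ± 0.19, mean 23.1 on HFD and 14.9 on chow) and the urate and hexose transporter Slc2a9 (0.45 ± 0.10). Over all genes, 10.9% rose and 7.45% fell in 129, and 27.5% rose and 32.7% fell in B6. In 129, 30.0% of all genes were at an unadjusted p below 0.05. With GC and length removed Slc2a9 alone passed, and with the Mir6236 covariate none did. In B6 those fits passed 48.8% and 5.01% of all genes. Of 19 other glycogen genes 3 rose and 2 fell in 129, and 5 rose and 4 fell in B6, beside the same shares of all genes as above. In 129 the glycogen targeting subunit Ppp1r3b (0.48 ± 0.13), the branching enzyme Gbe1 (0.42 ± 0.08) and the phosphoglucomutase Pgm2 (0.38 ± 0.07) rose and the synthase kinases Gsk3a (−0.28) and Gsk3b (−0.24) fell. In B6 lysosomal Gaa (1.45), Pgm2 (0.62) and the phosphorylase kinase subunit Phkg2 (0.51) led the rises, and Gsk3b (−0.64), glycogenin Gyg (−0.50) and Phkb (−0.41) the falls. Under the Mir6236 covariate 3 rose and 1 fell in 129, and 0 rose and 0 fell in B6. Of all genes 23.1% passed in 129 and 5.01% in B6 in that fit.

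Pentose phosphate genes had 0 of 7 called in 129 (limma, also 0 at an unadjusted p below 0.05) and 4 rising with 1 falling in B6, led by Pgls (2.64 ± 0.34 log2), transaldolase Taldo1 (1.51 ± 0.15) and transketolase Tkt (1.46 ± 0.17), while Rpe fell (−0.42) and had a value of 0.18 with GC and length removed. The shares of all genes, here and for the next list, were 10.9% rising and 7.45% falling in 129, with 30.0% at an unadjusted p below 0.05. In B6 they were 27.5% and 32.7%. With the Mir6236 covariate 0 of 7 passed in either strain by limma, against 23.1% of all genes in 129 and 5.01% in B6. Of 7 sugar-responsive regulators the thioredoxin-binding Txnip rose in 129 (0.81 ± 0.14, mean 748 on HFD and 417 on chow) and in B6 (0.72 ± 0.14, 684 on HFD and 408 on chow). Srebf1 (1.56 ± 0.24) and Klf10 (0.70 ± 0.31, limma adjusted p = 0.0461) rose in B6, where Arrdc4 fell (−0.35). Under the Mir6236 covariate Txnip was at 0.87 in 129 (adjusted p = 2.66e-06) and 0.36 in B6 (adjusted p = 0.449). Of the 7 regulators 2 rose and 0 fell in 129 in that fit, and 0 rose and 0 fell in B6. With GC and length removed 5 regulators were tested, of which 2 rose and 0 fell in 129 and 2 rose and 2 fell in B6. The fit without that trend passed 21.6% of all genes in 129 and 48.8% in B6. Without B6 HFD ZT22 replicate 3 the regulators had 2 rising and 1 falling in B6, and the pentose phosphate genes 4 rising and 2 falling. In that fit 60.1% of all genes passed in B6.

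Markers of other liver cells moved with the diet beside these lists, and their part was not tested. Their counts stand beside 10.9% of all genes rising and 7.45% falling in 129, and 27.5% and 32.7% in B6. Of 6 Kupffer cell markers 4 rose in 129 and 4 in B6, and their summed value was 729.5 to 1788 in 129 HFD and 533 to 2133 in 129 chow, and 1056 to 4748 in B6 HFD and 647 to 1695 in B6 chow. Of 4 stellate cell markers tested 1 rose in 129 and 3 in B6, with sums of 1122 to 1636 in 129 HFD and 1020.3 to 1474 in 129 chow, and 1358 to 2626 in B6 HFD and 825 to 1386 in B6 chow. Of 5 sinusoidal endothelial markers 2 rose and 1 fell in 129 and 3 rose in B6. Of 6 hepatocyte markers 1 rose and 1 fell in 129, and 2 rose and 4 fell in B6, with median sums of 1346125 in 129 HFD and 866750.2 in 129 chow, and 376889 in B6 HFD and 1339509 in B6 chow. Alb and Apob make up most of these sums. Alb was at the same top value, 863453, in every B6 chow library and had a median of 176662 in B6 HFD. All wild-type libraries hold the same sorted values, so Alb and Apob move in steps of rank at the top. Their differences, and those of the sums, are therefore shifts of rank and do not measure a change in amount. Medians of Alb, Apob, Tat and Cps1 were lower in B6 HFD than in B6 chow. Those of Apoa1 (17549 on HFD and 11971 on chow) and Ttr (27392 and 9403) were higher. Of the markers tested, 1 of 3 erythroid genes rose in B6, 1 lymphocyte gene rose in 129, and no neutrophil or cholangiocyte gene was called in either strain. The 2 neutrophil genes tested, S100a8 and S100a9, were above the filter only through B6 HFD ZT22 replicate 3 (6588 and 7952). Among the other 71 wild-type libraries their highest values were 11.98 and 13.47. The lack of a call therefore says nothing about neutrophils and diet. The adipocyte, skeletal muscle and kidney markers were below the filter, with median sums of at most 0.055 in any wild-type set. Pancreatic acinar markers were below it too, with median sums of 4.14 in 129 HFD, 4.58 in 129 chow, 2.81 in B6 HFD and 6.65 in B6 chow.

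The tested genes most like each of the 8 over the 24 wild-type group means, by the root mean square difference of centred log2 means, were Cisd1 (0.24) and Shpk (0.25) for Slc2a2, Hebp1 (0.18) and Reln (0.18) for Gckr, Etfb (0.17) and Eef2 (0.20) for Pfkl, and Mat1a (0.29) and As3mt (0.31) for Pfkfb1. They were Ttc23 (0.32) and Atp5e (0.37) for Pklr, Apoc4 (0.22) and Tmem205 (0.25) for Khk, Lrp4 (0.26) and Klf13 (0.26) for Gys2, and Pigk (0.13) and Azgp1 (0.13) for Pygl. The spread of each gene's own group means on this scale was 0.42 for Slc2a2, 0.88 for Pfkl, 0.93 for Khk and 0.19 for Pygl. The genes nearest to Pfkl and Khk have transcripts of 57.0% to 58.0% GC, close to the 57.1% and 57.9% of Pfkl and Khk themselves. For Slc2a2, at 41.7%, the nearest have 52.3% and 53.6%, and for Gys2, at 48.1%, 54.7% and 55.5%. For Gckr, at 52.2%, they have 51.0% and 52.1%, and for Pfkfb1, at 47.9%, 49.8% and 48.5%. For Pygl, at 50.4%, they have 48.7% and 48.8%, and Atp5e has 54.6% beside 54.3% for Pklr. The part of GC content in these likenesses was not tested.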

How the data were processed

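Bulk liver RNA was sequenced, and the deposited signal values are quantile-normalised reads per transcript, made by the authors. STAR, HOMER and the build mm10 are named in the submitters' processing notes, and versions are not given in the sources used here. The 3 tables hold 42361 transcripts each and were normalised separately to totals of 10837743 (wild type), 12305608 (Errg-Cre) and 10346206 (Esrrg LKO) per library, so the sequencing depth, and the counting error it gives, is unknown. The 18 columns with no labelled sample were not used, nor were the 91 transcripts of each table with no gene symbol, which held at most 0.09% of the total.

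The transcript of highest mean stood for a symbol. Values were taken as log2(value + 1) for genes with a mean of at least 10, and fitted with limma 3.58.1 (R 4.3.3) with 24 group means for the 72 wild-type libraries and with each mutant table alone, p-values being adjusted by Benjamini-Hochberg over all genes tested, with a threshold of 0.05. Daily courses were fitted with a 24 h cosine, and amplitudes are on the log2 scale from the mean to the peak. The fits were tested on simulated data. A GC and length trend, which was also removed as an alternative, could be computed for 90.6% of the tested wild-type genes. Other alternatives were another pseudocount, no filter, the mean over transcripts, libraries centred on the median gene, a Mir6236 covariate, a replicate block, only the sets compared, and libraries left out. Genes of the pathway lists were named when among the 3 largest rises or falls past the threshold, apart from some that are not reported here. The members and lists were chosen with earlier results of these data known.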

Additional observations from a re-analysis of the deposited data

Results flagged for a closer look

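The diet effect differed between the strains, by the test of the difference, for 3 of the 8 genes, against 34.4% of all genes. For Pfkl the effect in 129 minus that in B6 was −1.09 log2, for Khk it was −1.01 and for Pfkfb1 it was 0.65. With the Mir6236 covariate none of the 3 passed, and 0.124% of all genes did.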

How the results depend on the processing

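The replicate block changed 1 of 128 results on the members, Pfkfb1 in B6 HFD (amplitude 0.42, limma adjusted p = 0.0536). Deviations of the wild-type libraries from the means of their own groups were correlated between groups. The median was 0.005 for libraries of the same number, against −0.0028 for other numbers, so the numbers were not taken to pair samples. Another pseudocount, the mean over transcripts and centring on the median gene changed no call on the 8 genes. With the Mir6236 covariate 0 of 8 genes passed for diet in B6 (5.01% of all genes) and 0 for the diet by strain difference (0.124%), 2 for strain on HFD (29.8%), 2 for strain on chow (12.8%), 2 for the course in 129 chow (14.8%) and 1 in Errg-Cre (7.81%). That covariate turned the diet by strain difference of Gckr to 0.24, Pfkl to 0.073 and Khk to 0.52, and the strain difference of Khk to 0.36 on HFD and −0.15 on chow and of Slc2a2 to −0.0029 on HFD. Singling out B6 HFD ZT22 replicate 3, alone or with the GC and length trend removed, was chosen after seeing the data. With GC and length removed 1 gene passed for strain on HFD (35.2% of all genes), or 3 when that library was left out as well. Slc2a2 turned to −0.34 and −0.44 in those fits for the diet by strain difference, to −0.050 and −0.15 for strain on HFD and to 0.29 in both for strain on chow, and Gys2 to −0.011 in the second for strain on HFD. B6 chow ZT14 replicate 3, 129 chow ZT22 replicate 3 and B6 HFD ZT6 replicate 1 had many values under 1. Without these 3 libraries, Gys2 was at −0.023 for strain on HFD. With only the sets compared, 1 gene passed for strain on HFD, 1 for the course in B6 HFD, 1 for its change with diet in 129 and 1 for its difference between strains on chow. With no filter, 0 passed in Errg-Cre. With libraries or whole replicate numbers left out, the genes passing ranged from 4 to 7 for diet in B6, 0 to 2 for strain on HFD, 1 to 3 for the course in B6 chow, 0 to 2 in 129 HFD, 2 to 6 in 129 chow and 0 to 3 in Errg-Cre, and 0 to 1 each for its change with diet in 129 and its difference between strains on chow. Over all 11286 genes, leaving out 1 library gave 6420 to 6992 passing for diet in B6 and 3363 to 4143 for strain on HFD. For the course it gave 490 to 836 in B6 chow, 655 to 935 in 129 HFD and 4268 to 6230 in 129 chow. In Errg-Cre it gave 1244 to 2557 of 11621. For the change of the course with diet in 129 it gave 35 to 491, and for its difference between strains on chow 774 to 2745. Strain on HFD then ranged from −0.07 to 0.088 for Slc2a2 and from −0.037 to 0.0905 for Gys2. Without replicate 2, 47.0% of all genes passed for diet in B6 and 18.4% for strain on HFD. A changed count is therefore not a result on the 8 genes alone. The causes of these changes were not tested. Depth is unknown, so counting error cannot be given.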
